A study of Homo sapiens with 8 samples.

Results

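Accessible chromatin was compared at 7 genes that hold cells back from division, namely the cyclin-dependent kinase (CDK) inhibitor genes CDKN2A, CDKN2B, CDKN2C, CDKN2D, CDKN1B and CDKN1C and the tumour suppressor gene RB1. Every accessible region that touched one of these genes, or the 10 kb on either side of it, was taken, which gave 288 regions of the 1440417 in the 8 lists together. Each list held between 33 and 43 of them. The regions came from ATAC-seq, in which the transposase Tn5 cuts and tags open DNA, applied to U2OS, a cell line from a human osteosarcoma. The 4 groups were wild-type (WT) cells without UV, WT cells 3 h post UV-C at 20 J per square metre, ASH1L-/- cells without UV and ASH1L-/- cells 3 h post UV-C at the same dose, with 2 biological replicates each. ASH1L is a histone methyltransferase, and its gene had been cut with CRISPR/Cas9 in cells grown from isolated colonies, so that a difference between genotypes and a difference between the isolated cells and their parents cannot be told apart. Cells of all groups were treated with DNase before harvest.

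The proteins of these genes act on one switch. CDK4 and CDK6 with D-type cyclins, and CDK2 with cyclins E and A, phosphorylate the RB1 protein, which then releases the E2F transcription factors that drive the genes of S phase. The INK4 inhibitors p16INK4a (from CDKN2A), p15 (CDKN2B), p18 (CDKN2C) and p19 (CDKN2D) bind CDK4 and CDK6, whereas the CIP/KIP inhibitors p27 (CDKN1B) and p57 (CDKN1C) bind cyclin-CDK complexes more widely. CDKN2A has a further start site for p14ARF, a protein that restrains MDM2 and thereby protects p53. Loss or silencing of CDKN2A is among the commonest lesions of human tumours, osteosarcoma included.

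The lists held between 158198 and 220783 regions, and the depth of the libraries, as the lowest read pileup expected by the peak caller, ranged from 1.39 to 5.87. Replicate 1 of the ASH1L-/- cells without UV was the deepest and replicate 2 of that group the shallowest. Because fold enrichments were not normalised between lists, a promoter is described by whether a region lay within 1 kb of its start site and by the percentile of that region, which is the share of the regions of its list with the same or a lower fold enrichment. A promoter without a region has the percentile 0. A q-value below 0.05 was reached by 77.4% to 80.1% of a list's regions without UV and 85.7% to 94.2% post UV. The same percentile therefore need not mean the same strength in lists with and without UV. The part of this in the UV differences below was not tested. Regions were listed down to a p-value of 0.01, so a promoter called closed below is one without a region at that threshold. Of 8 mesenchymal and osteoblast marker genes, 4 had a promoter region in all 8 lists (RUNX2, COL1A1, SPARC and VIM), 3 in some and ALPL in none. Among marker genes of other cell types, EPCAM, KRT5 and GFAP had one in all lists and 4 had none in any list. The ASH1L promoter was open in all 8 lists, between the percentiles 81.1 and 97.6, which does not check the deletions, since these lie inside the gene.

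The stretches before 4 start sites are shown because the results turn on them, being those of CDKN2B, which differed between genotypes, of both CDKN2A start sites, which were closed throughout, and of CDKN2D, which was open throughout. They are the 250 bases upstream of each start site from RefSeq (build GRCh38.p14), read 5′ to 3′ on the strand of the gene. For p14ARF, the annotation used for promoters has start sites from 21994392, the canonical one, to 21995301. The stretch shown lies just upstream of the latter, within the window searched for regions. Capitals mark GGGCGG, a motif bound by SP1 and related factors, and CCAAT, a motif bound by NF-Y, on either strand (GGGCGG appears as CCGCCC and CCAAT as ATTGG when read on the other strand).
CDKN2B, chr9:22009306-22009555, minus strand: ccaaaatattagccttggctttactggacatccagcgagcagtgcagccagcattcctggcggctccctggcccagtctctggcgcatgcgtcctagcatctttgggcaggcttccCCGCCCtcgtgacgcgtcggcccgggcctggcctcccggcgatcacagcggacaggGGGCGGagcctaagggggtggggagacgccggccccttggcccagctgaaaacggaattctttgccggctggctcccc
CDKN2A p16INK4a, chr9:21974858-21975107, minus strand: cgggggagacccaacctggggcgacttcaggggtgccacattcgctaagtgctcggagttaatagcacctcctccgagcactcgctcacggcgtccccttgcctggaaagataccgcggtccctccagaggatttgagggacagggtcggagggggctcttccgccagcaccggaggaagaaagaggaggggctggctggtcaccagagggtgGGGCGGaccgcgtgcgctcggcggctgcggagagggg
CDKN2A p14ARF, chr9:21995325-21995574, minus strand: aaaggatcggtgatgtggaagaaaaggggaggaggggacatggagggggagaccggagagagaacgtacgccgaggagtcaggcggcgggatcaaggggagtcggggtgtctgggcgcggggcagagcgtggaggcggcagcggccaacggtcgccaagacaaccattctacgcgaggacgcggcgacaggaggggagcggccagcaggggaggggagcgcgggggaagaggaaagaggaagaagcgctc
CDKN2D, chr19:10568980-10569229, minus strand: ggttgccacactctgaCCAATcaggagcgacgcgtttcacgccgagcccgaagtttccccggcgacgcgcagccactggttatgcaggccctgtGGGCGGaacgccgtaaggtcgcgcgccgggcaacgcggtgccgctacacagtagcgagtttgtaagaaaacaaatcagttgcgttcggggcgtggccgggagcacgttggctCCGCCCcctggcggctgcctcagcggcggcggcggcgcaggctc
All 4 stretches were rich in G and C, with 66.4% in CDKN2B, 66.8% in both CDKN2A promoters and 67.6% in CDKN2D, beside a median of 58% over the 35116 promoters of the table. They held 18, 20, 24 and 33 CG dinucleotides in the same order, beside a median of 11. GGGCGG, present in 42.6% of all promoters, occurred 2 times in CDKN2B, 1 time at p16INK4a, not at p14ARF and 2 times in CDKN2D. CCAAT, present in 32.0% of all promoters, occurred 1 time in CDKN2D and in none of the other 3. None of the E2F motifs TTTCGCGC, TTTGGCGC and TTTCCCGC, which 0.439%, 0.550% and 1.39% of promoters hold, lay in these stretches on either strand. Among the other genes open in every list, the canonical promoter of CDKN2C lay below the median, with 48.8% G and C and 10 CG dinucleotides, and that of CDKN1B above it, with 64.4% and 27.

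CDKN2A had no accessible region at all. Neither the p16INK4a start site nor the p14ARF start site had one in any of the 8 lists, and no list held a region in the gene (chromosome 9, 21967752 to 21995301, hg38) or in the 10 kb on either side, a stretch of 47.5 kb. Of all canonical promoters of protein-coding genes, 17% had no region in any list. A whole locus without a region was less common, with 2.53% of 19970 gene loci, and with 0.601% of the 9977 loci at least as long as that of CDKN2A. The empty stretch around CDKN2A reached well beyond the gene. In WT cells it measured 123 kb and 91.8 kb without UV and 156 kb and 125 kb post UV, and in ASH1L-/- cells 89.1 kb and 84.2 kb without UV and 81.2 kb and 89.1 kb post UV. In the ASH1L-/- lists it ended at the CDKN2B promoter, and in the 4 WT lists it ran on past the CDKN2B start site. Between 0.940% and 3.20% of the gaps between neighbouring regions in a list were as long. The lists give no coverage outside regions, so closed DNA and DNA lost from the cells cannot be told apart here.

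CDKN2B, the neighbour of CDKN2A and a classical target of TGF-beta signalling, had an open promoter in the 4 ASH1L-/- lists and in no WT list. Its region lay at the percentiles 79.8 and 75.6 of the ASH1L-/- lists without UV and 81.2 and 90.3 of those post UV, and at 0 in all 4 WT lists. The fold enrichments of these 4 regions were 4.22, 5.79, 8.65 and 10.9, and their −log10 q-values 8.89, 7.39, 20.4 and 31.9. The regions were 538 to 616 bp wide, and their summits lay 22 to 218 bp upstream of the start site, on the sequence printed above. The groups did not overlap, and 1.79% of all start-site groups tested had such higher values in ASH1L-/- cells. The depth of the libraries, on the scale given above, was 2.10, 1.74, 2.53 and 2.67 in WT cells and 5.87, 1.39, 2.45 and 2.81 in ASH1L-/- cells, and its part in the difference was not tested. The difference between genotypes was 81.7 percentile points (SE 2.52, n = 4 and 4, adjusted p = 0.000981 over 24757 start-site groups, limma), beside 0.917% of start-site groups called in either direction and 0.481% called higher in ASH1L-/- cells. The call was lost (adjusted p = 0.220) when the spread was modelled as a trend on the mean percentile, a setting under which limma called none of the 24757. The promoter entered the test through its ASH1L-/- values alone, and the 4 WT values, all 0, add no spread to the SE.

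A promoter open in all ASH1L-/- lists and no WT list was rare over all canonical promoters. Of 19648 canonical promoters, 49 (0.249%) had this pattern and 12 (0.0611%) the opposite one. Those with a region in all 8 lists or in none cannot show either pattern, and 4566 had one in 1 to 7 lists. Among all accessible sites, at promoters or not, the shares were 0.186% and 0.0768%, with the 60.5% of sites present in 1 list included. By mean percentile in ASH1L-/- cells, CDKN2B ranked 8 of the 49. Within ASH1L-/- cells the mean was 77.7 (SD 2.97, n = 2) without UV and 85.7 (SD 6.45, n = 2) post UV. Both values post UV exceeded both without UV, an order whose share among all start-site groups was not counted. With the WT lists at 0, the fit holds no UV response of this promoter in WT cells, and its averaged UV difference of 4.04 percentile points (SE 2.52, adjusted p = 0.515, limma) rests on the ASH1L-/- lists.

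Few other sites lay near the CDKN2B promoter. One other region touched the CDKN2B locus (chromosome 9, 22002903 to 22009305, with 10 kb on either side), 2.52 kb upstream of the start site, and it was present only in replicate 2 of the WT cells without UV, at the percentile 21.2. Beyond it, inside the antisense gene CDKN2B-AS1, sites at 21.0 kb from the start site (percentiles 52.8 to 78.9) and at 43.4 kb (93.2 to 99.2) had a region in all 8 lists, and the others as far as 55.8 kb had one in 1 to 6 lists. On the other side, a site 89.4 kb away inside MTAP was present in all 4 ASH1L-/- lists (54.6, 62.3, 48.2 and 43.6) and in 1 of the 4 WT lists, replicate 2 without UV (62.6). Within 1 Mb on either side of CDKN2B, the lists of WT cells held 53, 70, 69 and 86 regions and those of ASH1L-/- cells 50, 66, 75 and 77, so the number of regions around the gene did not separate the genotypes. Reads of CDKN2B and of CDKN2B-AS1, which runs the other way over the same promoter, are not distinguished by ATAC-seq.

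**Figure D1:**
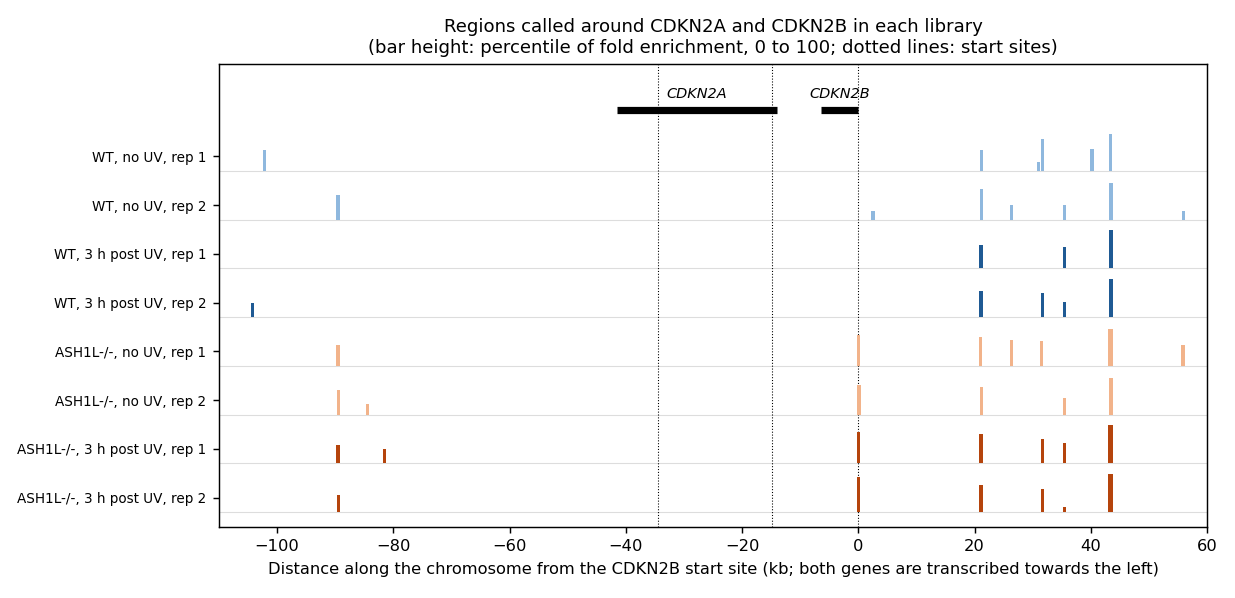
Accessible regions around CDKN2A and CDKN2B in each of the 8 lists, with the distance along the chromosome from the CDKN2B start site in kb on the x axis and 1 row per library, where bar height is the percentile of fold enrichment from 0 to 100, bars narrower than the line are drawn at a fixed least width, and dotted lines mark the p16INK4a, p14ARF and CDKN2B start sites. The 4 ASH1L-/- rows have a bar at the CDKN2B start site that the 4 WT rows lack, no row has a bar over CDKN2A, and the bars at 21.0 and 43.4 kb appear in all 8 rows.

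The other INK4 genes were open in all lists. CDKN2C (p18) had its canonical promoter at the percentiles 80.2 and 84.2 in WT cells without UV, 78.3 and 77.1 in WT cells post UV, 86.9 and 77.6 in ASH1L-/- cells without UV, and 84.7 and 90.2 in ASH1L-/- cells post UV. The groups overlapped for UV (0.33 percentile points, SE 2.82, adjusted p = 0.959, limma) and for genotype (4.90, SE 2.82, adjusted p = 0.782). The mean post UV was lower in WT cells and higher in ASH1L-/- cells, and the contrast between the UV differences of both genotypes (WT minus ASH1L-/-) was −9.68 percentile points (SE 5.64, adjusted p = 0.926, limma), which did not pass the test, beside 0.368% of start-site groups called. The gene had 3 start sites with a region of their own in all 8 lists. That at position 50960745 of chromosome 1, which lies next to the FAF1 promoter, was the strongest, between the percentiles 93.0 and 98.1. The region at 50968706, 1.88 kb upstream of the canonical start, ranged from 64.4 to 92.0. Further sites followed downstream of the gene, one at 7.05 kb from the canonical start in all 8 lists (percentiles 52.0 to 81.2) and one at 8.25 kb in 7 lists.

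CDKN2D (p19) had the strongest canonical promoter of the 7 genes by mean percentile (89.5, SD 5.46, n = 8). It lay at 95.0 and 92.2 in WT cells without UV, 86.9 and 79.2 in WT cells post UV, 93.6 and 94.5 in ASH1L-/- cells without UV, and 88.5 and 85.7 in ASH1L-/- cells post UV. Every list post UV was below every list without UV. The UV difference was −8.77 percentile points (SE 2.26, adjusted p = 0.183, limma), which did not pass the test. Of all start-site groups, 12.1% also had lower and not overlapping values post UV, and 1.37% were called in either direction. The 12.1% is over groups that include those without a region in a list without UV, which cannot show this order. Leaving out 1 library at a time, the UV difference ranged from −10.7 to −6.85 percentile points. Genotypes overlapped (2.25, SE 2.26, adjusted p = 0.783). In fold enrichment as deposited, which is not normalised between lists, the values post UV, 9.11 to 11.1, lay within the range without UV, 8.48 to 11.8. On log2 fold enrichment centred within each list, the UV difference was −0.33 (SE 0.119, adjusted p = 0.139, limma). The region was 551 to 732 bp wide with its summit 266 to 287 bp upstream of the start site in all lists. Other sites open in all 8 lists lay 2.80 kb downstream of the CDKN2D start, next to a start site of KRI1 (44.7 to 78.2), and 8.42 kb upstream in AP1M2 (70.3 to 93.4).

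CDKN1B (p27) was open in all lists. Its promoter lay at 84.2 and 80.9 in WT cells without UV, 77.1 and 70.6 in WT cells post UV, 86.3 and 83.2 in ASH1L-/- cells without UV, and 87.3 and 73.1 in ASH1L-/- cells post UV. The UV lists reached both the highest and the lowest value, and neither UV (−6.58, SE 3.80, adjusted p = 0.476, limma) nor genotype (4.29, SE 3.80, adjusted p = 0.782) passed the test. Its summit lay 50 to 69 bp downstream of the start site, whereas those of CDKN2C, CDKN2D and RB1 lay upstream. The annotated gene (chromosome 12, 12685498 to 12722369) includes a long transcript that starts far upstream, and the locus held the most sites after RB1, 18 in all with 5 in all 8 lists. These 5 were the promoter itself, sites 32.9 kb and 21.2 kb upstream that lie at start sites of GPR19 and of longer CDKN1B transcripts, a site 12.5 kb upstream inside the long transcript (71.4 to 92.1) and a site 8.06 kb downstream at a start site of APOLD1 (72.2 to 89.0). A further site at 9.70 kb, in APOLD1, was present in the 4 lists post UV, at the percentiles 48.9, 38.2, 31.3 and 45.0, and in no list without UV. Among all 548046 sites of the 8 lists joined together, 3758 (0.686%) had that pattern and 0.0967% the opposite one. Only the 123380 sites present in at least 4 lists can show either, so these shares include many sites that cannot.

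CDKN1C (p57), an imprinted gene expressed from the maternal copy, was closed or nearly so. A region within 1 kb of its start site was present only in WT cells post UV, at the percentiles 0.598 and 9.67, with fold enrichments of 1.99 and 2.62. It lay 527 and 542 bp downstream of the start site, and only the stronger one, with a −log10 q-value of 3.81, had a q-value below 0.05. The UV difference was 2.57 percentile points (SE 2.33, adjusted p = 0.567, limma). The promoter entered the test through its WT values post UV alone, and the values of the other lists, all 0, add no spread to the SE. These were among the weakest regions of their lists, and with lists cut to an equal length of 150000 regions no list held one. The surroundings were open, however, with 3 sites upstream in all 8 lists, at 2.88 kb (66.6 to 83.1), 6.60 kb (52.3 to 80.6) and 7.1 kb (19.5 to 76.7) from the start, all inside SLC22A18AS. Unlike that of CDKN2A, the CDKN1C locus (chromosome 11, 2883213 to 2885775, with 10 kb on either side) therefore held between 3 and 6 regions in every list while its own promoter had at most 1.

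**Figure D2:**
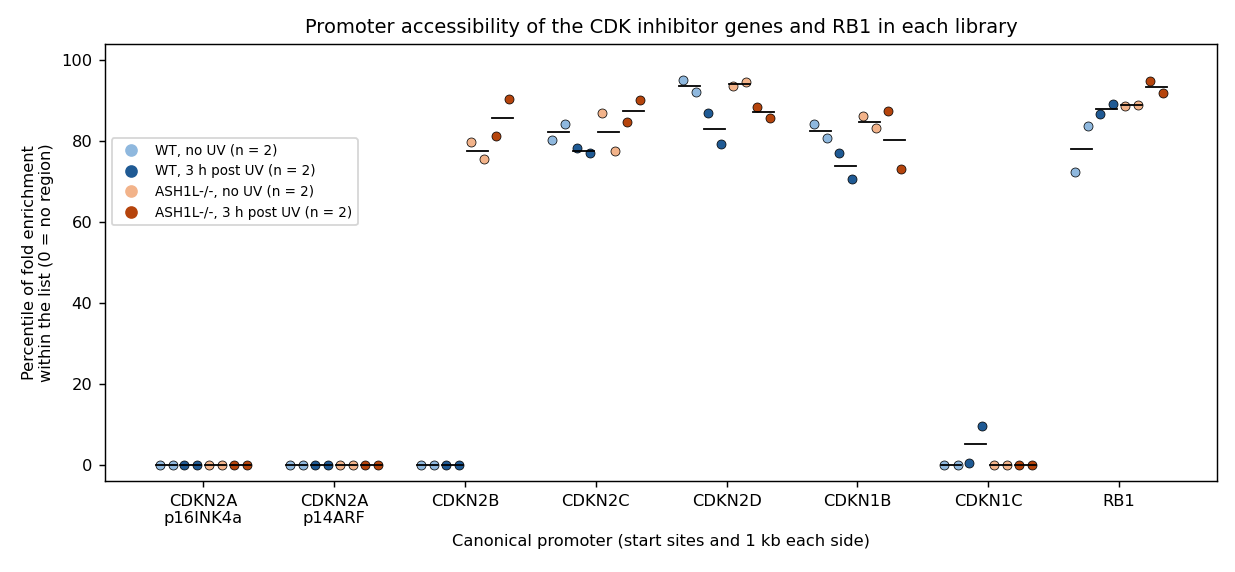
Percentile of fold enrichment within the list (y axis, 0 where no region was called) of the 8 canonical promoters of the 7 genes (x axis), with 1 point per library and a bar at the mean of the 2 libraries of each group. CDKN2A stays at 0 in all libraries, CDKN2B is at 0 in WT and between 75.6 and 90.3 in ASH1L-/- libraries, CDKN1C does not exceed 9.67, and the other 4 promoters lie between 70.6 and 95.0 in all libraries.

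RB1 itself, the target of the kinases that these inhibitors restrain, was open in all lists. Its promoter lay at 72.5 and 83.9 in WT cells without UV, 86.6 and 89.3 in WT cells post UV, 88.7 and 89.0 in ASH1L-/- cells without UV, and 94.8 and 91.8 in ASH1L-/- cells post UV. Values were higher post UV than without UV within each genotype, and the WT lists without UV were the lowest. The share of all start-site groups with this order was not counted, and the sides overlapped over all 8 lists. Neither UV (7.12, SE 2.92, adjusted p = 0.323, limma) nor genotype (8.03, SE 2.92, adjusted p = 0.641, limma) passed the test. The region was shared with the divergent gene RB1-DT, and its summit lay 228 to 250 bp upstream of the RB1 start site in all lists.

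The body of RB1 held almost no accessible sites. The canonical transcript is 178 kb long, and beyond 1 kb from its start only 6 sites lay in it, of which 5 were present in 1 list and 1 in 2 lists. The annotated gene runs on to 48599436 of chromosome 13 by way of longer transcripts, and the 20 sites downstream of the canonical transcript included 2 that were open in all 8 lists. The first, at 229 kb, is the RCBTB2 promoter (94.6 to 99.6), and its ASH1L-/- values, 98.9 to 99.6, all exceeded its WT values, 94.6 to 98.7. The second, at 297 kb and just past the end of the gene, was lower in every list post UV (72.2 to 74.8) than in every list without UV (76.8 to 92.2). A site at 256 kb had the opposite order, with percentiles of 75.1, 96.7, 87.7 and 84.4 post UV against 0, 57.8, 0 and 0 without UV. Single sites were not tested. Over the 29 sites of the 7 loci that were present in at least 4 lists, 2 had all values post UV above and 2 all values post UV below those without UV, beside 9.98% and 7.79% of the 123380 such sites of all lists. For genotype, 2 had all ASH1L-/- values above the WT values, the CDKN2B promoter and the RCBTB2 promoter, beside 3.57%, and 0 had them below, beside 1.93%.

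**Figure D3:**
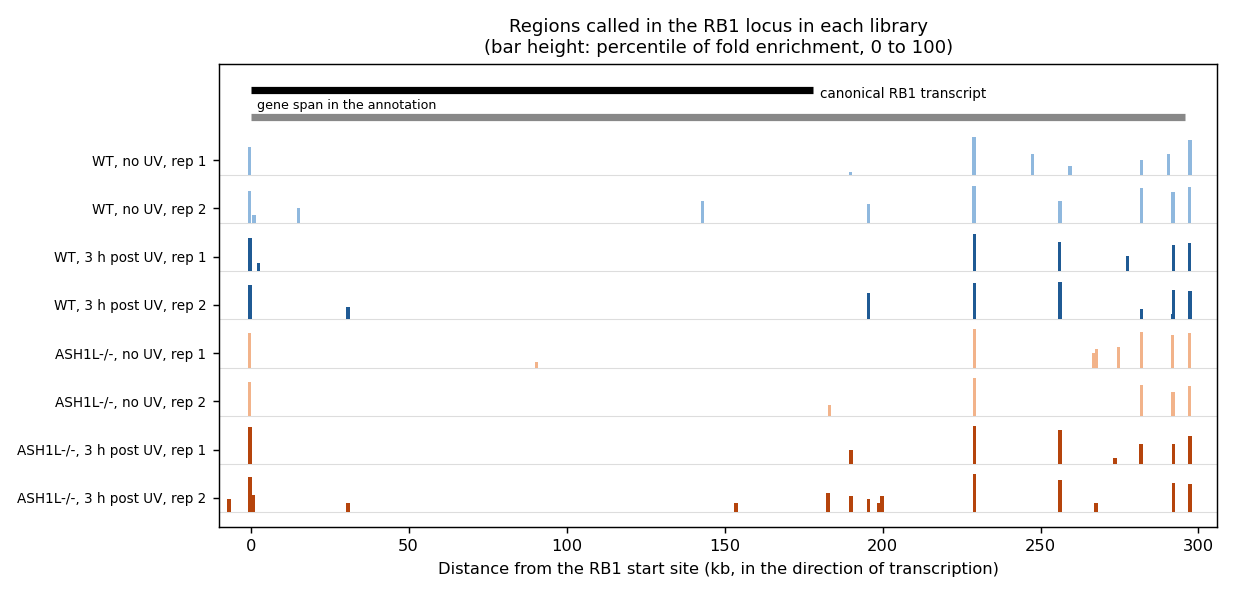
Accessible regions of the RB1 locus in each of the 8 lists, with the distance from the RB1 start site in kb on the x axis and 1 row per library, where bar height is the percentile of fold enrichment from 0 to 100 and narrow bars are drawn at a fixed least width. All rows have bars at the start site, at 229 kb and at 297 kb, and the 178 kb of the canonical transcript (black line) hold few others.

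Counted over whole loci, the genes differed more from each other than between conditions. The counts were not scaled by length, and the stretches searched ranged from 22.6 kb (CDKN1C and CDKN2D) to 316 kb (RB1). The number of regions in the gene and 10 kb on either side was 0 in all lists for CDKN2A and 0 or 1 for CDKN2B. It was 6 to 11 for CDKN2C, 3 to 6 for CDKN2D, 8 to 12 for CDKN1B, 3 to 6 for CDKN1C and 6 to 15 for RB1. The CDKN2C lists of ASH1L-/- cells held 9, 7, 11 and 9 regions and those of WT cells 6, 8, 7 and 7, a difference of 0.31 in log2(number + 1) (SE 0.14, adjusted p = 0.476, limma). None of the 6 loci tested passed for UV or genotype, where limma called 0 and 17 (0.0873%) of 19465 loci, with 2083 and 2319 at an unadjusted p below 0.05. For CDKN2B the genotype difference was 0.75 (SE 0.23, adjusted p = 0.306, limma). With regions of a q-value below 0.05 alone, which leaves out the weak WT region, it was 1.0 (adjusted p = 0.0205, limma). Every ASH1L-/- list then held 1 region and every WT list 0, so the lists add no spread to the SE. That region is the promoter region described above, so the count is no separate support. The highest count, 15 regions at RB1 in replicate 2 of the ASH1L-/- cells post UV, came from the second longest list.

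**Figure D4:**
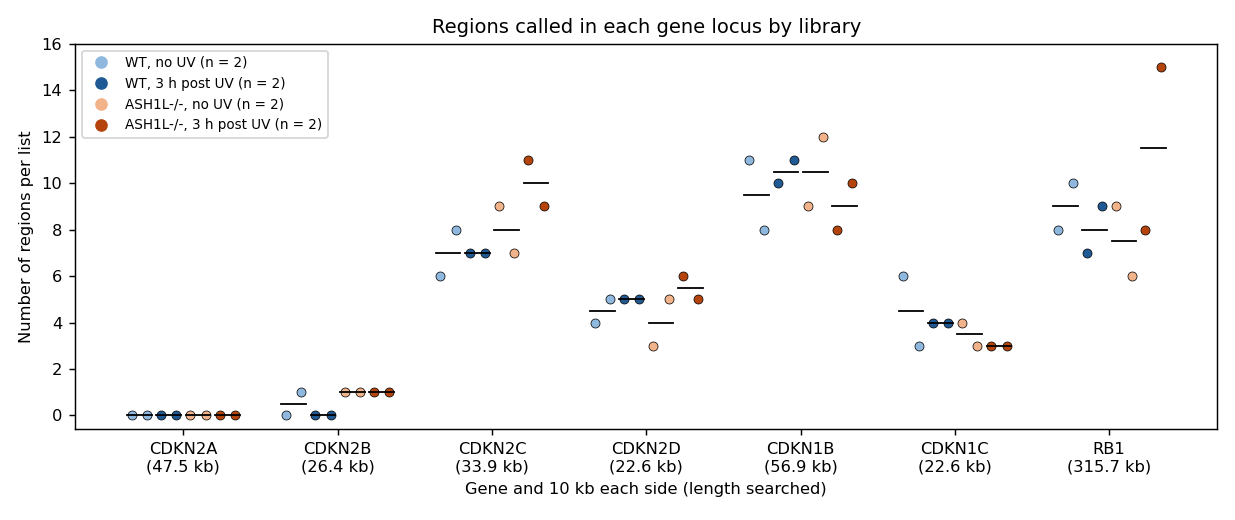
Number of regions per list (y axis) in each of the 7 genes with 10 kb on either side (x axis, with the length searched in kb), with 1 point per library and a bar at the mean of the 2 libraries of each group. CDKN2A is at 0 throughout, CDKN2B at 0 or 1, and for the other genes WT overlaps with ASH1L-/- and UV with no UV.

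Of the 73 sites that the regions of the 7 loci formed when joined over the lists, 18 (24.7%) were present in all 8 lists and 39 (53.4%) in 1 list, beside 11% and 60.5% of all sites. The sites present in all lists were 4 at CDKN2C, 3 at CDKN2D, 5 at CDKN1B, 3 at CDKN1C and 3 at RB1, and none at CDKN2A or CDKN2B. Of the 30 sites of RB1, 21 were present in 1 list, the largest share among the loci.

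The rest of the pathway was mostly open. Of 29 other genes of the CDK, cyclin, RB and E2F pathway, 25 had a region at the canonical promoter in all 8 lists, 4 in some lists and 0 in no list, whereas of the 8 promoters of the 7 genes 4 were open in all lists, 2 in some and 2 in none. Over all canonical promoters these shares were 59.8%, 23.2% and 17%. The median of the mean percentiles was 82.4 over the 29 genes and 72.0 over all canonical promoters. The highest was SKP2 (99.5 to 99.9), whose protein marks p27 for destruction. The lowest was BMI1, a Polycomb protein that represses CDKN2A in many cells, with a region in 4 lists and none above the percentile 45.2. CDK6, the partner kinase of CDK4, had one in 4 lists (highest 64.5), EZH2, the methyltransferase of Polycomb, in 4 (highest 73.8), and CCNE1, which encodes cyclin E1, in 7. CDKN1A (p21), the CIP/KIP gene that p53 induces after damage, was open in all lists but between 10.8 and 72.3. Its mean percentile was 30.1 post UV and 54.6 without UV, with overlapping values. The UV difference of −24.5 percentile points (SE 7.39, adjusted p = 0.226, limma) did not pass the test.

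No gene of this list passed the limma test in any of the 3 contrasts, with 5 of the 29 at an unadjusted p below 0.05 for UV, 1 for genotype and 0 for the difference of the UV differences, beside 16.4%, 7.21% and 4.24% of all start-site groups. For 6 of the 29, all values post UV were below all values without UV, beside 12.1% of all start-site groups. They were the genes of cyclin D1 (CCND1), of the E2F factors E2F2, E2F3 and E2F6, of the RB1 relative RBL1, and CKS1B, a cofactor of SKP2. These 6 had a region in all 8 lists, as had 14392 of the 24757 start-site groups behind the 12.1%. A group without a region in a list without UV cannot show this order, so the shares are not over like promoters. None was higher post UV without overlap, beside 2.1%, and genotypes overlapped for all 29. The median UV difference was −3.34 percentile points over the list and −2.31 over all start-site groups tested. The part of the unlike make-up of lists with and without UV, given above, in these UV differences was not tested.

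**Figure D5:**
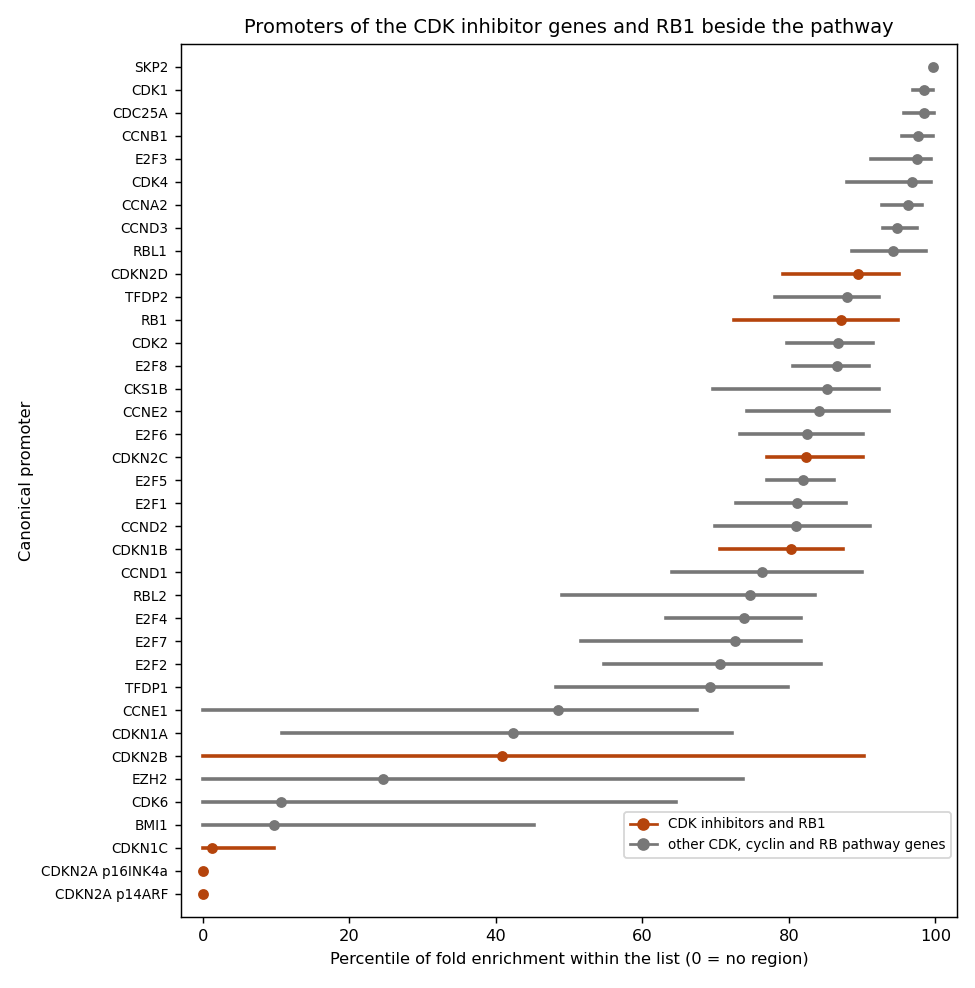
Canonical promoters of the 7 genes (orange) and of 29 other pathway genes (grey) in order of their mean percentile of fold enrichment (x axis, 0 where no region was called), where the point is the mean of the 8 lists and the line runs from the lowest to the highest list. CDKN2D, RB1, CDKN2C and CDKN1B lie among the pathway genes with means of 80.3 to 89.5, while CDKN2B spans 0 to 90.3 and CDKN1C and both CDKN2A promoters lie at the bottom.

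For the 4 promoters open in all lists, the canonical promoters of other genes with the most similar percentiles over the 8 lists were ZCCHC4 and SPECC1L for CDKN2C (mean absolute difference 1.15 and 1.62 percentile points), NEIL2 and TCOF1 for CDKN2D (0.790 and 0.961), TBC1D8 and MLYCD for CDKN1B (2.14 and 2.17), and VWA8 and ZMAT4 for RB1 (2.77 and 2.82). In order of mean percentile the 8 promoters ran from CDKN2D (89.5, SD 5.46) over RB1 (87.1, SD 6.73), CDKN2C (82.4, SD 4.80) and CDKN1B (80.3, SD 6.14) to CDKN2B (40.9), CDKN1C (1.28) and both CDKN2A promoters (0), each over 8 lists. Among the first 4, neighbours in that order stood closer to each other than the SD over their lists.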

How the data were processed

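Omni-ATAC libraries of 8 U2OS cultures were sequenced by the authors as paired reads. Per the labels and methods, the authors trimmed adapters (cutadapt 1.9.1), aligned to hg38 without chromosome Y (Bowtie2 2.4.5), filtered (SAMtools 1.7, bedtools 2.29.2, Picard) and called peaks per library (MACS2 2.2.7.1), without pooling. The deposited lists give per summit a fold enrichment over local background, a ratio not normalised between libraries. They also give a −log10 p-value and a −log10 q-value, as the authors' peak caller wrote them. The deposited score was not used. Whether and how reads were shifted for the Tn5 offset is not given in the sources used here.

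A region was a distinct interval with its highest fold enrichment. Start sites of protein-coding transcripts (GENCODE 44, hg38) at most 1 kb apart formed a start-site group, and a promoter was such a group with 1 kb on either side. It was canonical if it held a MANE or Ensembl canonical transcript. Groups came from the sample titles. Differences were fitted with limma 3.58.1 (R 4.3.3), over all 8 libraries, to the percentile of all 24757 start-site groups with a region in at least 1 list, and to log2(region number + 1) of 19465 gene loci, with Benjamini-Hochberg adjustment over all of them and a threshold of 0.05. In the fit of loci, the prior spread followed the mean, a choice made on simulated data. On simulated data the promoter fit recovered 7% of UV changes of 20 percentile points and 33% of those of 40. These changes were placed at promoters of middle percentile with a region in all 8 lists. The fit of loci recovered 10% of UV changes of 1 and 60% of those of 2 on the log2 scale. These were placed at loci with a mean above 8 regions, with counting noise alone. Recovery at other promoters and loci was not simulated. Lists give no read counts, so relative depth was solved from fold enrichment and p-value. Motifs were searched in the 250 bases upstream of the RefSeq start sites, and 6 of the 7 genes had an entry. That of RB1 starts inside the gene and was not used, and no entry was found for CDKN1C.

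The genes, the lists of pathway and marker genes and the tests were chosen with earlier results of these data known. All members are named. A marker gene of another cell type is not reported here. Pathway genes are named if a promoter region was missing in a list, if called, if groups did not overlap, or if highest or lowest, and CDKN1A was named after its values were seen. The alternatives were other windows, overlaps, q-value thresholds, list lengths, filters, scales and leaving out each library. The models of the prior spread were alternatives added after the data were seen.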

Additional observations from a re-analysis of the deposited data

How the results depend on the processing

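The CDKN2B promoter kept its direction and its call in 18 of 19 alternatives, with genotype differences of 72.0 to 84.0 percentile points, and lost the call under a variance trend on the mean percentile (81.7, adjusted p = 0.220). Its adjusted p ranged from 0.000496 to 0.220 (limma). Its WT values were 0 in every alternative, so the settings could change only the ASH1L-/- values or the estimate of spread. The number of alternatives that kept the call is therefore no separate support for the difference. In all alternatives tried, 4 of the 8 promoters were open in all lists, and 2 or 3 in none. Of 448 alternatives for single genes, 411 kept direction and side of the threshold.

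The numbers of all start-site groups called moved more. For UV (339), they were 571 on centred log2 fold enrichment of promoters open in all 8 lists, 153 with a replicate block, 0 with a variance trend (4875 at an unadjusted p below 0.05, limma) and 154 by gene. For genotype (227), they were 20, 120, 0 (1784 unadjusted) and 108 in the same order, and 118 with a region in at least 4 lists. For UV by genotype (91), they were 0 (563 unadjusted), 16, 0 (879 unadjusted) and 30, and 18 with a region in at least 4 lists and 140 with an overlap of 200 bp. Without 1 library each, they ranged from 479 to 2439, from 383 to 1158 and from 274 to 920.

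For loci, UV calls (0) became 313 in the gene span alone, 8 and 188 at q-values of 0.05 and 0.01, 9 at equal list length, 3 scaled by list length and 42 without a filter. Genotype calls (17) became 302, 11, 88, 39, 509 and 68 in the same order, 0 with 25 kb on either side (2387 unadjusted) and 0 with the replicate block (2161 unadjusted). UV by genotype calls (0) became 219 in the gene span alone, 45 at a q-value of 0.01 and 30 without a filter. Without 1 library each, the ranges were 0 to 96, 0 to 111 and 0 to 76. The cause was not tested.

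Reversed directions concerned differences that were not called in the report. They were CDKN2C promoter, UV, −4.005 with a 2 kb window, and, as log2 region number, CDKN2C, UV, −0.29 in the gene span, CDKN1C, UV, 0.50 in the gene span (adjusted p = 0.000525, limma, where the only regions are the weak ones of WT cells post UV) and 0.0805 at a q-value of 0.01, CDKN1B, UV, 0.0314 with 25 kb, 0.0344 and 0.36 at q-values of 0.05 and 0.01, 0.28 at equal list length and 0.0774 scaled, RB1, genotype, −0.0045 at a q-value of 0.01, and CDKN2D, genotype, 0.0314 with 25 kb. Without 1 library each, reversals gave −1.99 to 2.65 percentile points for the CDKN2C promoter (UV) and, as log2 number, −0.13 to 0.0779 (UV) and −0.14 to 0.0669 (genotype) for CDKN1B, −0.32 to 0.0805 for CDKN1C (UV), −0.17 to 0.12 for CDKN2D (genotype), and −0.0242 to 0.39 (UV) and −0.12 to 0.29 (genotype) for RB1.

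Leaving out replicate 1 of the WT cells post UV gave UV differences of −10.7 percentile points for the CDKN2D promoter and 4.83 for that of CDKN1C. The latter came from 1 weak region in replicate 2 of that group. No other list left in that fit held a region there. For genotype, the region number of CDKN2B was called in the gene span alone (adjusted p = 0.00012, limma) and at equal list length (0.0155). It was also called at q-values of 0.05 (0.0205) and 0.01 (0.00548). The difference was 1.0 on the log2 scale in these settings, and also without replicate 2 of the WT cells without UV. The region number of CDKN1C (−0.50) was called in the gene span alone (0.000627). In all these settings the lists within each group had the same count, so the SE came from the prior spread alone. The CDKN2B counts repeat the presence of its promoter region. Replicate numbers did not pair the libraries (correlations of −0.09 to 0.12 over 14392 start-site groups), and the replicate block changed no call of the 7 genes. In a fit without 1 library, the lone library of its group is assumed to vary like the others. Depth ranged from 1.39 to 5.87, and a missing region is not evidence of no signal.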
